A study of Mus musculus with 18 samples.

Results

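Aminoacyl-tRNA synthetases join each amino acid to its transfer RNA (tRNA) and so supply the substrates of protein synthesis. Cells hold one set of these enzymes in the cytosol and another in mitochondria, and both sets are encoded in the nucleus. The cytosolic enzymes charge tRNAs for translation of most cellular proteins, while the mitochondrial enzymes, most of which carry the suffix 2, charge tRNAs for the few respiratory chain subunits that mitochondria make themselves, a demand that is high in the heart. Transcripts of several cytosolic synthetases are known targets of ATF4, the transcription factor of the integrated stress response, in which phosphorylation of eIF2alpha slows general translation while ATF4 is made. The tryptophanyl enzyme Wars is also a known target of interferon-gamma.

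The 35 genes described here were chosen by name, 19 as cytosolic and 16 as mitochondrial synthetases, out of the 34989 genes to which the deposited transcripts were summed. The hearts came from wild-type C57B/L6 mice that were 12 weeks old per the labels, while the study's methods give a younger age and both sexes. All hearts were infused with HTK preservation solution, kept in ice-cold HTK for 0, 4, or 8 h, and then perfused with Krebs buffer for 1 h before the left ventricle (LV) and right ventricle (RV) were frozen. The 0 h hearts were thus infused and perfused as well, and the model is an isolated mouse heart without circulating blood. RNA was taken from whole ventricle and gave 18 libraries, 3 per group, and the labels do not say that a replicate number names a heart.

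Libraries held 22552581 to 46236771 estimated counts, of which transcripts of the mitochondrial genome took 22.7% to 32.6% at 0 h, 24.9% to 27.7% at 4 h, and 32.0% to 34.4% at 8 h. All 8 ventricular cardiomyocyte markers were above 0 in every library, and the summed level of these markers was 35872 to 78984 CPM (counts scaled to the size of the library). The stored libraries numbered 3 stood apart from the others of their groups on the first principal component of all genes, and 4 such libraries (LV and RV, 4 and 8 h) were low in Y-linked transcripts, as was number 2 at 0 h in both ventricles. Values without the 4 stored libraries numbered 3 are given beside several of the results. In whole tissue, fewer cells of a type and less RNA per cell cannot be told apart. Levels are given as TMM-scaled CPM, in the order of replicate numbers 1, 2, and 3. A gene was past the test when the adjusted p of edgeR's quasi-likelihood test over all genes was under 0.1.

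The element TGATGNAA, the core of the sequence bound by ATF4 with its C/EBP partners, was searched on both strands of the promoters of the synthetases, from 250 bases before to 50 bases after the start site (RefSeq, GRCm38.p6). Promoters were found for 12 of the 19 cytosolic and 14 of the 16 mitochondrial genes. Cars, Hars, Lars, Nars, Rars, Vars, Wars, Hars2, and Pars2 had no entry. The element was present in 5 cytosolic promoters and 0 mitochondrial promoters, and in 3.97% of all 32851 promoters. The matching stretches are shown, because Tars and Yars are among the genes that rose after storage, with the element in capitals (as TGATGNAA or its reverse complement) and up to 20 bases on either side in the direction of the gene:
Yars, chr4:129189886-129189932, plus strand: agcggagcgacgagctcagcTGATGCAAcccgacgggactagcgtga
Tars, chr15:11399646-11399693, minus strand: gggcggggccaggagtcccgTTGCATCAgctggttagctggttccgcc
Aars, upstream match, chr8:111033710-111033757, plus strand: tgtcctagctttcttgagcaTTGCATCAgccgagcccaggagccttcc
Aars, downstream match, chr8:111033831-111033871, plus strand: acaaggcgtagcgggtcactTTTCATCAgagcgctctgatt
Gars, chr6:55037951-55037998, plus strand: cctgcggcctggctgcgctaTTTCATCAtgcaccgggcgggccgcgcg
Iars, chr13:49682117-49682159, plus strand: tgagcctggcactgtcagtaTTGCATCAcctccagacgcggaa
The first base of the element lay 3 bases after the start site in Yars, 7 after it in Iars, and 9 after it in the downstream match of Aars. It lay 15 bases before the start site in Tars, 30 before it in Gars, and 112 before it in the upstream match of Aars. A match is a description of these letters and was not tested as a binding site. The same promoters were also searched for the NRF1 element and the interferon-stimulated response element, which were not tested either. The NRF1 element was present in 3 cytosolic promoters (Farsb, Kars, and Tars), 2 mitochondrial promoters (Iars2 and Mars2), and 4.6% of all promoters. Tars thus had it beside the ATF4 element. The interferon-stimulated response element was present in 1 cytosolic promoter (Qars), 0 mitochondrial promoters, and 3.44% of all promoters.

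In unstored hearts the synthetases were expressed at moderate levels, with Lars2 as the exception. Compared as TPM, which corrects for transcript length and depth (mean of the 6 libraries at 0 h), the cytosolic genes lay between 11.3 for Tars and 52.1 for Kars, with a median of 18.8. The mitochondrial genes other than Lars2 lay between 1.33 for Mars2 and 32.2 for Fars2, with a median of 11.9. Lars2 was listed at 215 TPM, above all other members. All 35 genes passed the filter on low counts in both ventricles.

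After storage the cytosolic and mitochondrial genes went different ways, more so in RV and at 8 h (plot of log2 fold changes of all members). In RV at 4 h the median log2 fold change was 0.34 over the cytosolic genes and -0.06 over the mitochondrial genes, beside 0.00 over all genes tested. In RV at 8 h these medians were 0.19 and -0.43, beside -0.07 over all genes. In LV they were 0.19 and -0.01 at 4 h and 0.10 and -0.23 at 8 h, with -0.00 and -0.02 over all genes. At 8 h the fold change was below 0 for 15 of the 16 mitochondrial genes in each ventricle, with Lars2 as the other, while 51.7% of all genes in LV and 55.0% in RV were below 0. These medians are descriptions without a test, since the members share libraries. Without the 4 stored libraries numbered 3, 15 of 16 mitochondrial genes were still below 0 at 8 h, with medians of -0.16 in LV and -0.23 in RV, and the cytosolic medians were -0.01 and 0.19.

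**Figure D1:**
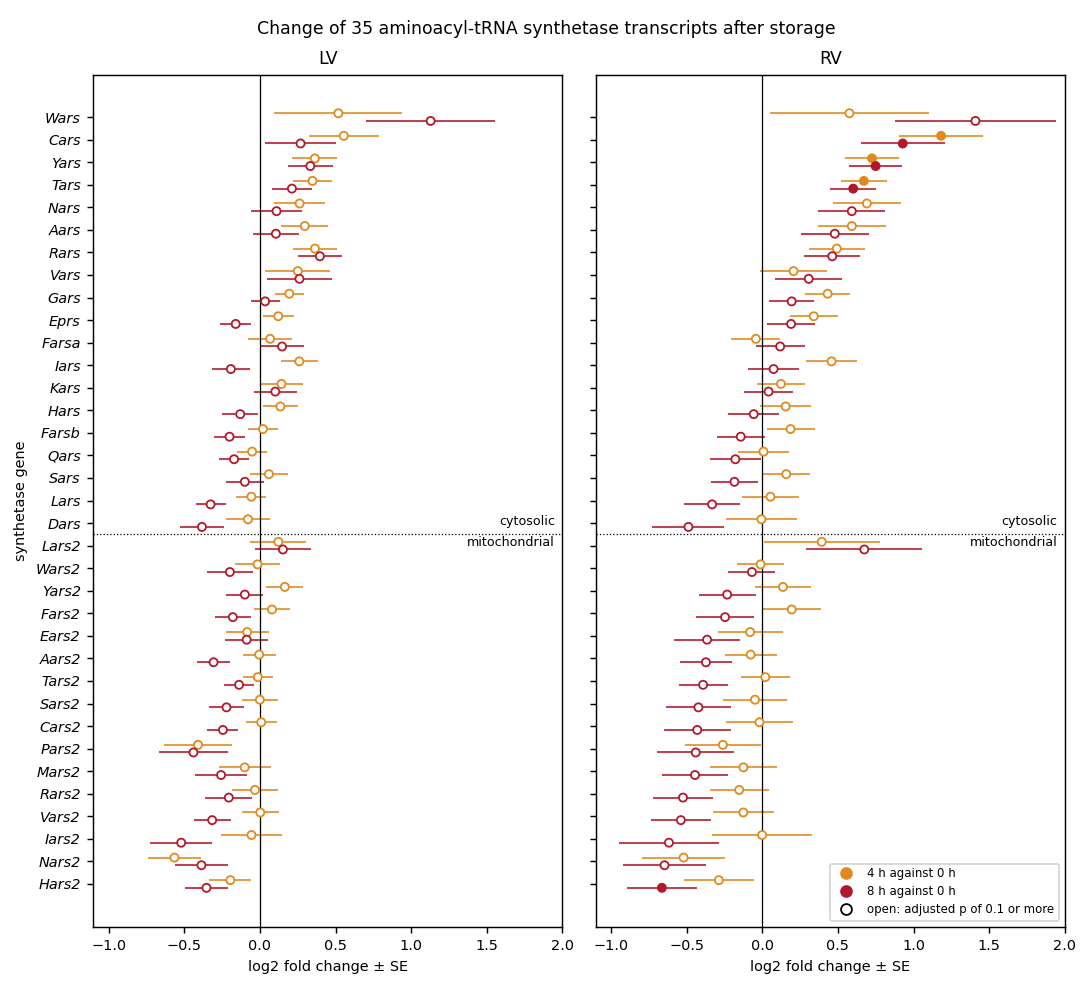
Log2 fold change ± SE of each of the 35 synthetase transcripts after 4 h and 8 h of storage against 0 h, in LV and RV (n = 3 libraries per group); filled points have an adjusted p under 0.1. In RV, Cars, Tars, and Yars are filled to the right of 0 at both times and Hars2 is filled to the left at 8 h, while no point is filled in LV.

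Few single members passed the test. In RV at 4 h, 3 of the 19 cytosolic genes rose, namely Cars, Tars, and Yars (15.8%), whereas 6.56% of the 14622 genes tested rose. None of the 16 mitochondrial genes was past the test there with edgeR or DESeq2, 0 had an unadjusted p under 0.05, and 4.34% of all genes fell. Of all 14622 genes, 3142 had an unadjusted p under 0.05. In RV at 8 h the same 3 cytosolic genes rose, now close to the share of all genes that rose (13.9%), and 1 of 16 mitochondrial genes, Hars2, fell (6.25%), where 7.19% of all genes fell. All of these calls also exceeded a 1.5-fold change, which 6.17% of all genes did with a rise at 4 h and 13% at 8 h.

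The calls depended on single libraries. At 4 h in RV none was left without 0 h number 2, without 0 h number 3, or without 4 h number 1, and 8 cytosolic genes rose without 8 h number 3. At 8 h in RV the number of members past the test was 0 without 0 h number 2, 1 without 0 h number 3, 2 without 8 h number 1, and 2 without 8 h number 3. Without 8 h number 2 it was 17, of which 9 were mitochondrial genes that fell. The share of all genes called in these fits is not given here, so the counts are not a result about the synthetases alone.

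In RV the same-numbered libraries of different storage times deviated together from their group means, and a fit with the replicate number as a block called more members. At 4 h it called 8 cytosolic genes higher (Cars, Rars, Tars, Nars, Yars, Gars, Aars, and Iars), where it called 9.6% of all genes higher and 6.84% lower. At 8 h it called 7 cytosolic genes higher (Cars, Rars, Wars, Tars, Nars, Yars, and Aars) and the mitochondrial Lars2, beside 18.5% of all genes. It called the mitochondrial Hars2, Vars2, and Mars2 lower at 8 h, beside 14.6% of all genes, so that the mitochondrial share of 18.8% was near that of all genes.

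In LV no member was past the test at either time with edgeR. At 4 h, 5 of the 35 had an unadjusted p under 0.05 and DESeq2 called 1, and at 8 h these numbers were 9 and 4. Of all 14564 genes tested in LV with edgeR, 2271 had an unadjusted p under 0.05 at 4 h and 3396 at 8 h. DESeq2 called 762 of 15239 genes higher and 342 lower at 4 h, and 1413 of 14797 higher and 814 lower at 8 h. By the adjusted p of edgeR, 2.49% of all genes rose and 0.494% fell at 4 h, and 6.1% rose and 2.34% fell at 8 h. The smallest adjusted p among the members at 8 h was 0.102, for the cytosolic Lars (log2 fold change -0.33 ± 0.10 (SE)). Without LV 8 h number 2, 5 members were past the test at 8 h, namely Wars and Yars above 0 and Lars, Dars, and Iars2 below 0. The share of all genes called in that fit is not given here.

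Cars (chr7:143557230-143600090, minus strand, GRCm38), the cysteinyl enzyme of the cytosol, had the largest change among the genes that rose. In LV its level was 22.4, 17.1, and 14.9 CPM at 0 h, 36.9, 23.0, and 20.01 CPM at 4 h, and 22.1, 19.998, and 23.4 CPM at 8 h. In RV it was 19.2, 14.0, and 14.8 CPM at 0 h, 49.3, 33.3, and 25.3 CPM at 4 h, and 37.0, 21.4, and 32.3 CPM at 8 h. Every stored RV library was thus above every unstored one, while the LV groups overlapped at both times. The fold in RV was 2.27 at 4 h (log2 fold change 1.18, 95% interval 0.56 to 1.81, adjusted p = 0.041) and 1.90 at 8 h (0.93, 0.31 to 1.55, adjusted p = 0.057). In LV the log2 fold changes were 0.55 (adjusted p = 0.297) and 0.27 (adjusted p = 0.506). Within each of the RV groups the library numbered 1 was the highest, and without 4 h number 1 the log2 fold change at 4 h was 0.88 and no longer past the test.

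Tars (chr15:11382301-11399665, minus strand), the cytosolic threonyl enzyme, had less spread. In LV it stood at 27.8, 23.7, and 24.05 CPM at 0 h, 36.9, 28.8, and 30.2 CPM at 4 h, and 32.2, 27.1, and 27.9 CPM at 8 h. In RV it stood at 26.8, 22.8, and 22.7 CPM at 0 h, 42.6, 36.3, and 34.97 CPM at 4 h, and 42.8, 32.3, and 33.8 CPM at 8 h. The RV groups did not overlap at either time, and in LV only those at 4 h did not. The log2 fold change in RV was 0.67 ± 0.15 (SE) at 4 h (adjusted p = 0.036) and 0.60 ± 0.15 at 8 h (adjusted p = 0.033), against 0.35 ± 0.13 and 0.21 ± 0.13 in LV, which did not pass the test.

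Yars (chr4:129189760-129219607, plus strand), the cytosolic tyrosyl enzyme, was the member with the lowest adjusted p in RV at 8 h. Its LV level was 28.3, 24.5, and 26.4 CPM at 0 h, 40.6, 29.96, and 31.2 CPM at 4 h, and 34.6, 28.4, and 36.6 CPM at 8 h. Its RV level was 26.9, 24.01, and 23.6 CPM at 0 h, 47.5, 35.1, and 39.2 CPM at 4 h, and 47.1, 33.2, and 43.9 CPM at 8 h. Stored and unstored libraries did not overlap at either time in RV or LV, in LV at 8 h by a narrow margin. The log2 fold change in RV was 0.73 at 4 h (95% interval 0.33 to 1.12, adjusted p = 0.045) and 0.75 at 8 h (0.35 to 1.14, adjusted p = 0.024). In LV it was 0.36 and 0.33, with adjusted p = 0.286 and 0.217.

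**Figure D2:**
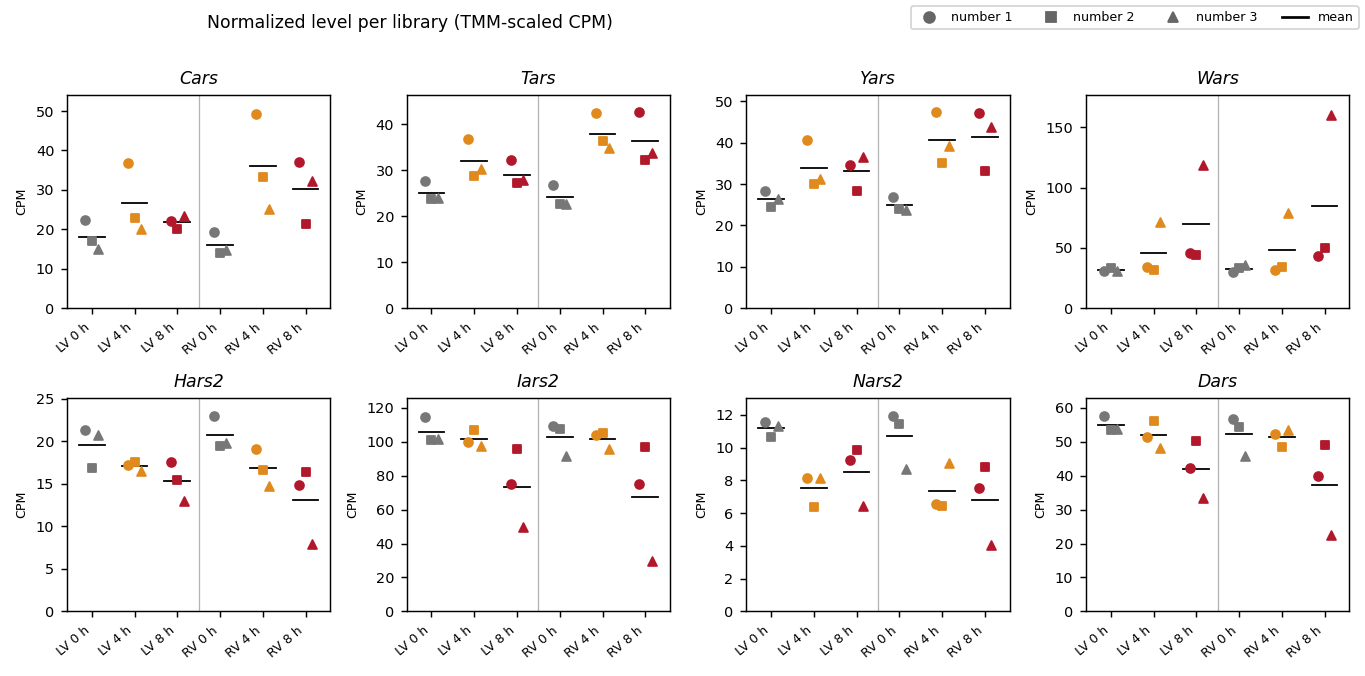
TMM-scaled CPM of 8 synthetase transcripts in each of the 18 libraries; symbols give the replicate number and horizontal lines the mean of 3 libraries. Cars, Tars, and Yars lie above their 0 h libraries in all stored RV libraries, Wars is high in the stored libraries numbered 3, and Hars2, Iars2, and Dars are lowest in RV 8 h number 3.

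The levels of Cars, Tars, and Yars mostly moved with the transcripts of the ATF4 pathway. Of 22 ATF4 pathway and target genes that are not synthetases, 12 rose in RV at 4 h and 12 at 8 h, and 2 and 3 did in LV. The shares of all genes that rose were 6.56% and 13.9% in RV and 2.49% and 6.1% in LV. None of the 22 fell. The list was chosen with earlier results of these data known, so its counts are not independent evidence. The median log2 fold change of that list was 1.13 and 1.35 in RV and 0.56 and 0.44 in LV. Slc7a11, the cystine transporter, was higher at 8 h by 2.36 in RV (adjusted p = 0.008) and 2.16 in LV (adjusted p = 0.033) on the log2 scale. Mthfd2, a mitochondrial folate enzyme, was higher at 8 h by 2.38 in RV (adjusted p = 0.012), and in LV its value was 1.27 (adjusted p = 0.119). Ddit4, an inhibitor of mTORC1, had 1.99 in RV (adjusted p = 0.076) and 1.68 in LV (adjusted p = 0.104). Atf4 itself, named after its values were seen, was higher in RV by 1.36 at 4 h (adjusted p = 0.035) and 1.51 at 8 h (adjusted p = 0.014).

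Per library, the mean log2 difference from the 0 h mean of Cars, Tars, and Yars in RV was 1.11, 0.71, and 0.61 at 4 h and 0.98, 0.42, and 0.77 at 8 h. The mean over the 22 ATF4 genes in the same libraries was 1.40, 0.91, and 0.86 at 4 h and 1.40, 0.86, and 1.10 at 8 h. In LV the synthetase mean was 0.73, 0.24, and 0.22 at 4 h and 0.35, 0.12, and 0.33 at 8 h, where the ATF4 mean was 0.96, 0.44, and 0.53 and then 0.53, 0.17, and 0.70. Libraries with the higher ATF4 mean thus mostly had the higher synthetase mean, and in both ventricles number 2 was the lowest at 8 h. At 0 h number 1 was already the highest in both means. Its ATF4 mean was 0.34 in LV and 0.40 in RV, and its synthetase mean was 0.19 and 0.18. All other 0 h values lay between -0.26 and -0.08. Cars, Tars, and Yars passed the test in these RV libraries, so their means are not separate evidence of a rise. The part of the ATF4 genes in the change of the synthetases was not tested. Of the 5 genes with an ATF4 element shown above, all 5 had a log2 fold change above 0 in RV at 4 h and at 8 h, with medians of 0.59 and 0.48, where 17 and 13 of all 19 cytosolic genes did. Tars and Yars were past the test.

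Beside 13.9% of all genes, 2 of the 4 kinases that phosphorylate eIF2alpha rose in RV at 8 h. These were Eif2ak2, which senses double-stranded RNA and is itself induced by interferon (log2 fold change 3.63, adjusted p = 0.047), and Eif2ak4, which senses uncharged tRNA (0.53, adjusted p = 0.067). In LV the values at 8 h were 2.80 (adjusted p = 0.108) and 0.25 (adjusted p = 0.255). Eif2ak3, the kinase of the endoplasmic reticulum, had -0.39 in RV and -0.48 in LV at 8 h, neither past the test.

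Wars (chr12:108860030-108894174, minus strand) had the largest fold change of all members at 8 h, and the largest spread. In LV its level was 31.3, 33.1, and 31.2 CPM at 0 h, 34.0, 31.4, and 71.5 CPM at 4 h, and 45.8, 43.9, and 119 CPM at 8 h. In RV it was 29.7, 33.1, and 35.5 CPM at 0 h, 31.3, 34.2, and 79.0 CPM at 4 h, and 43.5, 50.3, and 161 CPM at 8 h. At 8 h all stored libraries were above all unstored ones in both ventricles, and at 4 h only those numbered 3 stood out. The log2 fold change at 8 h was 1.13 ± 0.43 (SE) in LV (adjusted p = 0.161) and 1.41 ± 0.53 in RV (adjusted p = 0.112). Without the stored libraries numbered 3 it was smaller and more even, 0.48 in LV (adjusted p = 0.031) and 0.50 in RV (adjusted p = 0.052). With the replicate block the adjusted p in RV was 0.046.

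Most of the higher Wars signal was assigned to the transcript Wars-205 (plot of single transcripts). Wars-201 (chr12:108860030-108894174) had a mean of 25.7 CPM at 0 h and 24.5 CPM at 8 h in LV, and 25.7 and 27.1 CPM in RV. Wars-205 (chr12:108860030-108893198), which begins farther downstream, was at 2.2, 2.4, and 8.8 CPM at 0 h and 11.9, 18.8, and 93.3 CPM at 8 h in LV. In RV the values of Wars-205 were 0.3, 2.9, and 12.5 CPM at 0 h and 13.8, 15.2, and 133 CPM at 8 h. Libraries numbered 3 were thus the highest in Wars-205 before storage as well. In a fit in which the rows of the members were replaced by their transcripts, a step chosen after these values were seen, the log2 fold change of Wars-205 at 8 h was 3.22 in LV (adjusted p = 0.166) and 3.43 in RV (adjusted p = 0.148). With the replicate block it was 3.39 in RV (adjusted p = 0.008). Wars-207, a retained-intron transcript that held 1.43% of the counts of the gene, had 2.04 in LV (adjusted p = 0.195) and 1.88 in RV (adjusted p = 0.128), and 1.57 in RV with the block (adjusted p = 0.096). The split rests on few distinguishing sequences, since 1 stretch of 31 bases in Wars-205 and 37 in Wars-201 occur in no other transcript.

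Interferon-gamma response genes were high in the same libraries. Of 10 such genes, 1 rose in LV at 4 h, 6 in LV at 8 h, 4 in RV at 4 h, and 8 in RV at 8 h, among them the chemokines Cxcl10 (log2 fold change at 8 h 5.86 in LV, 6.51 in RV) and Cxcl9 (5.67 and 6.15). Among all genes tested, the share that rose was 2.49% (LV, 4 h), 6.1% (LV, 8 h), 6.56% (RV, 4 h), or 13.9% (RV, 8 h). The enzyme of tryptophan breakdown Ido1 had a log2 fold change at 8 h of 4.63 in LV (adjusted p = 0.139) and rose by 5.02 in RV (adjusted p = 0.079). At 8 h the mean log2 difference of the 10 genes from 0 h was 2.10, 2.10, and 4.57 in LV, while RV had 2.33, 2.61, and 5.11, highest in number 3. Its part in the level of Wars was not tested. Vars, the valyl enzyme, was also highest in the stored libraries numbered 3 (at 8 h, 56.6 CPM in LV beside 53.3 CPM in RV, against 31.6 to 35.1 CPM over the 6 libraries at 0 h), without being past the test.

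**Figure D3:**
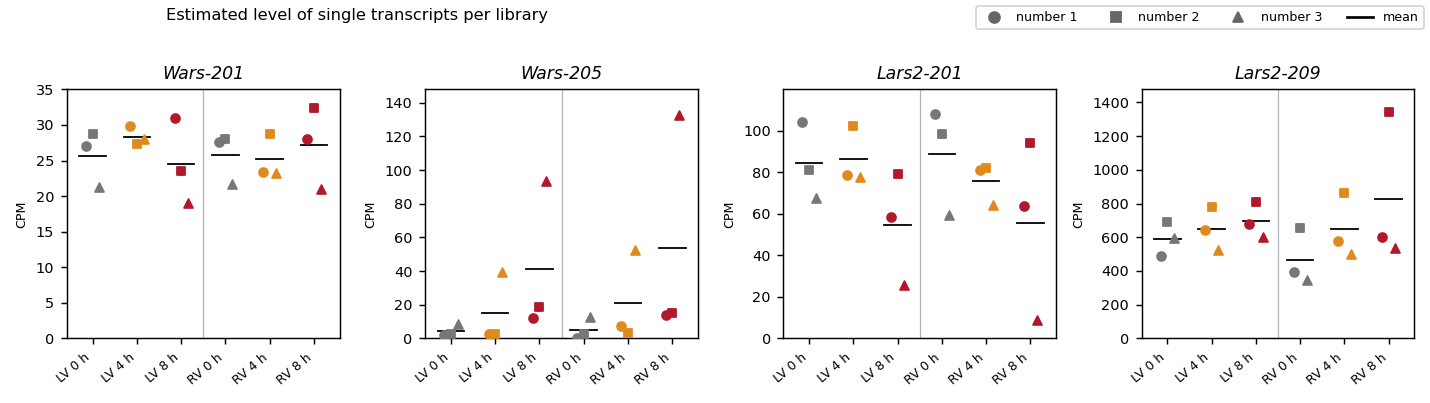
Estimated CPM of the transcripts Wars-201, Wars-205, Lars2-201, and Lars2-209 in each library; symbols give the replicate number and lines the mean of 3 libraries. At 8 h Wars-205 reaches 93.3 CPM (LV) and 133 CPM (RV) in number 3 while Wars-201 is at most 32.4 CPM in any library, and Lars2-209 exceeds Lars2-201 in all libraries.

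The multi-synthetase complex is a particle that holds several synthetases on scaffold proteins. Among the 7 enzymes of it that were listed here, the values at 8 h went both ways and none passed the test. The cytosolic methionyl enzyme, Mars, was not among the genes chosen. Rars (chr11:35808381-35834506, minus strand), the arginyl enzyme, was at 29.0, 26.7, and 28.3 CPM at 0 h, 34.4, 32.6, and 41.0 CPM at 4 h, and 32.6, 33.5, and 44.3 CPM at 8 h in LV. Its RV libraries were at 29.1, 27.6, and 27.2 CPM at 0 h, 36.3, 31.8, and 48.5 CPM at 4 h, and 37.0, 34.0, and 43.3 CPM at 8 h. Its stored libraries lay above its unstored ones in all 4 comparisons, with log2 fold changes of 0.36 to 0.49 and adjusted p values from 0.128 to 0.271. Without the stored libraries numbered 3 the values at 8 h were 0.23 in LV and 0.33 in RV.

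Dars (chr1:128363707-128417368, minus strand), the aspartyl enzyme, had the largest negative value of the cytosolic genes at 8 h. In LV it was at 57.6, 53.4, and 53.6 CPM at 0 h, 51.4, 56.3, and 48.1 CPM at 4 h, and 42.2, 50.4, and 33.4 CPM at 8 h. RV had 56.6, 54.3, and 45.7 CPM at 0 h, 52.2, 48.5, and 53.5 CPM at 4 h, and 39.9, 49.0, and 22.5 CPM at 8 h. The groups were separate at 8 h in LV and overlapped in RV, where number 3 was the lowest. The log2 fold change at 8 h was -0.38 ± 0.15 (SE) in LV (adjusted p = 0.167) and -0.49 ± 0.24 in RV (adjusted p = 0.193). Without RV 8 h number 3 it was -0.23 in RV, and without the stored libraries numbered 3 it was -0.24 in RV and -0.26 in LV. Of the other complex enzymes at 8 h in RV, Lars had -0.33, Qars -0.18, Kars 0.04, Iars 0.07, and Eprs 0.19. Of the 3 scaffold genes, Eef1e1 was past the test at 8 h in both ventricles, higher by 0.68 in LV (adjusted p = 0.031) and 0.68 in RV (adjusted p = 0.048) on the log2 scale. Aimp1 and Aimp2 were not past the test. Of all genes, 6.1% rose in LV and 13.9% in RV at 8 h.

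Gars and Kars, whose single genes supply the glycyl and lysyl enzymes of both compartments, had log2 fold changes of 0.03 to 0.19 at 8 h, none past the test. Gars was at 52.0, 50.9, and 53.6 CPM at 0 h, 60.9, 55.6, and 62.4 CPM at 4 h, and 53.5, 50.7, and 55.7 CPM at 8 h in LV. In RV Gars was at 51.7, 49.2, and 53.4 CPM at 0 h, 75.9, 58.4, and 71.4 CPM at 4 h, and 65.6, 56.2, and 53.5 CPM at 8 h. Its stored libraries were above the unstored ones at 4 h in both ventricles, with a log2 fold change of 0.43 ± 0.15 (SE) in RV (adjusted p = 0.124, and 0.074 with the replicate block).

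Kars was the most abundant cytosolic member per length. In LV it was at 76.3, 69.1, and 73.2 CPM at 0 h, 76.0, 71.7, and 93.5 CPM at 4 h, and 69.3, 74.1, and 90.8 CPM at 8 h. The RV libraries were at 75.4, 71.4, and 78.3 CPM at 0 h, 76.2, 73.5, and 92.5 CPM at 4 h, and 70.3, 73.8, and 84.9 CPM at 8 h. Its groups overlapped in all comparisons, the log2 fold changes lay between 0.04 and 0.14, and at 8 h in RV the 95% interval was -0.32 to 0.40. Without the stored libraries numbered 3 its values at 8 h were -0.04 in LV and -0.07 in RV, and those of Gars were -0.01 and 0.23.

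Among the remaining cytosolic members, Nars and Aars, the asparaginyl and alanyl enzymes, came closest to the genes that rose. In RV the log2 fold change of Nars was 0.69 at 4 h (adjusted p = 0.104) and 0.59 at 8 h (adjusted p = 0.110), and that of Aars was 0.59 (adjusted p = 0.162) and 0.48 (adjusted p = 0.182). Vars, Farsa, Farsb, Hars, and Sars had values between -0.18 and 0.31 in RV at 8 h. The enzymes of class I and class II, which differ in the fold of the catalytic domain, did not separate, with medians of -0.18 and -0.18 in RV and -0.17 and -0.14 in LV at 8 h over 17 genes each.

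Hars2, the histidyl enzyme of mitochondria (chromosome 18), was the one mitochondrial member past the test. In LV its level was 21.3, 16.8, and 20.7 CPM at 0 h, 17.2, 17.6, and 16.6 CPM at 4 h, and 17.5, 15.5, and 12.9 CPM at 8 h. In RV it was 22.9, 19.5, and 19.8 CPM at 0 h, 19.1, 16.6, and 14.7 CPM at 4 h, and 14.9, 16.4, and 7.96 CPM at 8 h. All stored RV libraries were below all unstored ones, and the LV groups overlapped. In RV at 8 h Hars2 fell by 0.66 ± 0.23 (SE) on the log2 scale (fold 0.631, adjusted p = 0.093). The call was lost with RLE size factors, without the filter on low counts, without the stored libraries numbered 3 (-0.42, adjusted p = 0.116), and in 8 of the 9 fits that left out a library, all but that without RV 8 h number 2. Without RV 8 h number 3 the log2 fold change was -0.40. The 5′ ends of Hars2 and of the cytosolic Hars overlap on opposite strands, and 3.99% of the 31-base stretches of Hars2 are shared with other genes.

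Iars2 (chr1:185284726-185329396, minus strand), the isoleucyl enzyme, had the largest mean decrease among the mitochondrial genes. In LV it was at 114, 101, and 101 CPM at 0 h, 100.02, 107, and 97.4 CPM at 4 h, and 74.8, 95.9, and 49.6 CPM at 8 h. Its RV libraries were at 109, 108, and 91.7 CPM at 0 h, 104, 105, and 95.6 CPM at 4 h, and 75.1, 96.6, and 29.6 CPM at 8 h. At 4 h the groups overlapped, at 8 h they did so in RV only, and number 3 was the lowest in both ventricles. The log2 fold change at 8 h was -0.52 ± 0.20 (SE) in LV (adjusted p = 0.171) and -0.62 ± 0.33 in RV (adjusted p = 0.230), and without RV 8 h number 3 it was -0.26 in RV. Without the stored libraries numbered 3 the values were -0.32 in LV and -0.27 in RV. Of the 31-base stretches of Iars2, 22.5% are shared with other genes, so that part of its count is uncertain.

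Nars2 (chr7:96951505-97064758, plus strand), the asparaginyl enzyme, had values below 0 at both times. In LV it was at 11.6, 10.6, and 11.3 CPM at 0 h, 8.15, 6.37, and 8.13 CPM at 4 h, and 9.25, 9.83, and 6.46 CPM at 8 h. RV had 11.9, 11.4, and 8.69 CPM at 0 h, 6.57, 6.42, and 9.07 CPM at 4 h, and 7.55, 8.80, and 4.07 CPM at 8 h. The LV groups were separate at both times, and the RV groups overlapped by RV 0 h number 3. The log2 fold change at 4 h was -0.56 ± 0.17 (SE) in LV (adjusted p = 0.168) and -0.52 ± 0.27 in RV. Without the stored libraries numbered 3 Nars2 was past the test at 4 h, at -0.62 in LV (adjusted p = 0.065) and -0.70 in RV (adjusted p = 0.057), while at 8 h it had -0.24 and -0.40, not past the test, beside -0.39 and -0.65 with them.

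Vars2 (chr17:35655634-35667592, minus strand), the valyl enzyme of mitochondria, was at 26.8, 23.9, and 23.2 CPM at 0 h, 26.5, 24.4, and 23.1 CPM at 4 h, and 21.5, 20.8, and 16.9 CPM at 8 h in LV. The RV libraries were at 29.6, 27.1, and 25.1 CPM at 0 h, 24.7, 25.3, and 24.2 CPM at 4 h, and 20.7, 23.2, and 12.3 CPM at 8 h. Its 8 h libraries lay below its 0 h libraries in both ventricles, with log2 fold changes of -0.32 ± 0.12 (SE, adjusted p = 0.169) and -0.54 ± 0.20 (adjusted p = 0.107, and 0.056 with the replicate block). Without RV 8 h number 3 the RV value was -0.31, and without the stored libraries numbered 3 it was -0.33.

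Pars2 (chr4:106651069-106655282, plus strand), the prolyl enzyme, was among the members with the lowest counts. In LV it was at 3.78, 3.51, and 3.20 CPM at 0 h, 2.18, 2.60, and 3.13 CPM at 4 h, and 2.81, 3.02, and 1.87 CPM at 8 h. Its RV libraries were at 2.81, 3.12, and 3.56 CPM at 0 h, 2.31, 2.53, and 2.98 CPM at 4 h, and 2.47, 2.93, and 1.56 CPM at 8 h. The LV groups were separate at both times, but at -0.44 at 8 h (95% interval -0.95 to 0.07) the LV change was not past the test, and the RV groups overlapped. Without the stored libraries numbered 3 the values at 8 h were -0.28 in LV and -0.24 in RV. The other mitochondrial members apart from Lars2 (Aars2, Cars2, Ears2, Fars2, Mars2, Rars2, Sars2, Tars2, Wars2, and Yars2) had log2 fold changes at 8 h between -0.52 and -0.07 in RV and between -0.31 and -0.09 in LV.

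Lars2 (chr9:123366927-123462666, plus strand), the leucyl enzyme of mitochondria, was the one above 0 at 8 h. It was at 592, 775, and 666 CPM at 0 h, 722, 881, and 605 CPM at 4 h, and 737, 892, and 625 CPM at 8 h in LV. RV had 505, 756, and 412 CPM at 0 h, 658, 948, and 567 CPM at 4 h, and 668, 1439, and 548 CPM at 8 h. Number 2 was the highest in every group and the groups overlapped in each comparison, with log2 fold changes at 8 h of 0.15 in LV and 0.67 ± 0.38 (SE) in RV (adjusted p = 0.2505, and 0.055 with the replicate block).

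Most of the Lars2 signal came from a transcript annotated as a target of nonsense-mediated decay. Lars2-209 (chr9:123366954-123462666, plus strand) held 89.6% of the counts of the gene over all libraries, and the protein-coding Lars2-201 (chr9:123366927-123462664) held 10.3%. Lars2-201 was at 104, 81.3, and 67.6 CPM at 0 h and 58.6, 79.2, and 25.7 CPM at 8 h in LV, and at 108, 98.6, and 59.4 CPM and then 63.7, 94.0, and 8.9 CPM in RV. Its lowest value was in RV 8 h number 3, as it was for Hars2, Iars2, Nars2, Vars2, and Pars2. Its log2 fold change at 8 h was -0.63 in LV (adjusted p = 0.307) and -0.68 in RV (adjusted p = 0.449), where that of Lars2-209 was 0.23 and 0.84. Only 0.939% of the 31-base stretches of Lars2-209 occur in no other transcript, so the division between the transcripts is uncertain.

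Other genes of mitochondrial translation had similar values. None of 9 mitochondrial translation factors was past the test with edgeR or DESeq2 at 8 h, and 2 in LV and 1 in RV had an unadjusted p under 0.05. Of all genes tested, 3396 of 14564 in LV and 4500 of 14622 in RV had an unadjusted p under 0.05 at 8 h. The median log2 fold change of the 9 factors at 8 h was -0.29 in LV and -0.50 in RV. Their mean log2 difference from 0 h was lowest in number 3. It was -0.19, -0.06, and -0.51 in LV at 8 h and -0.22, -0.02, and -1.19 in RV. The elongation factor Gfm1 had -0.44 and -0.56, the ribosome recycling factor Gfm2 -0.39 and -0.51, and the release factor Mtrf1 -0.36 and -0.65. Of the 4 genes that make mitochondrial glutaminyl-tRNA or formyl-methionyl-tRNA by other routes, Mtfmt, the formyltransferase, fell in RV at 8 h by 0.55 on the log2 scale (adjusted p = 0.087). Of 4 editing and deacylase genes, Dtd2 fell in RV at 8 h by 0.63 (adjusted p = 0.053). Of 6 cytosolic elongation factor genes, Eef1a1 was higher at 8 h by 0.62 in LV (adjusted p = 0.091) and 0.95 in RV (adjusted p = 0.047). At 8 h 6.1% of all genes rose in LV and 13.9% in RV, and 7.19% fell in RV.

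The lower mitochondrial values moved with 1 library and with cardiomyocyte markers (plot of list means by library). The mean log2 difference from 0 h over the 16 mitochondrial synthetases at 8 h was -0.16, -0.09, and -0.46 in LV, and RV had -0.26, -0.02, and -0.90. The mean over the 8 ventricular cardiomyocyte markers was -0.17, -0.04, and -0.25 in LV, and RV had -0.24, -0.05, and -0.74, so that number 3 was lowest and number 2 highest in both lists. In RV at 8 h all 8 markers had values below 0 with 0 past the test with edgeR (0 at an unadjusted p under 0.05) or DESeq2, and in LV 1 of 8, Myh6, the main myosin heavy chain of the adult mouse ventricle, fell by 0.63 (adjusted p = 0.041). Of all genes, 2.34% fell in LV and 7.19% in RV at 8 h. The summed level of the 8 markers ran from 67691 to 76778 CPM at 0 h and from 35872 to 65105 CPM at 8 h in RV. The part of a lower share of cardiomyocyte RNA in the mitochondrial values was not tested. The cytosolic mean over 19 genes in the same libraries was 0.07, -0.01, and 0.11 in LV and 0.32, 0.14, and 0.16 in RV.

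**Figure D4:**
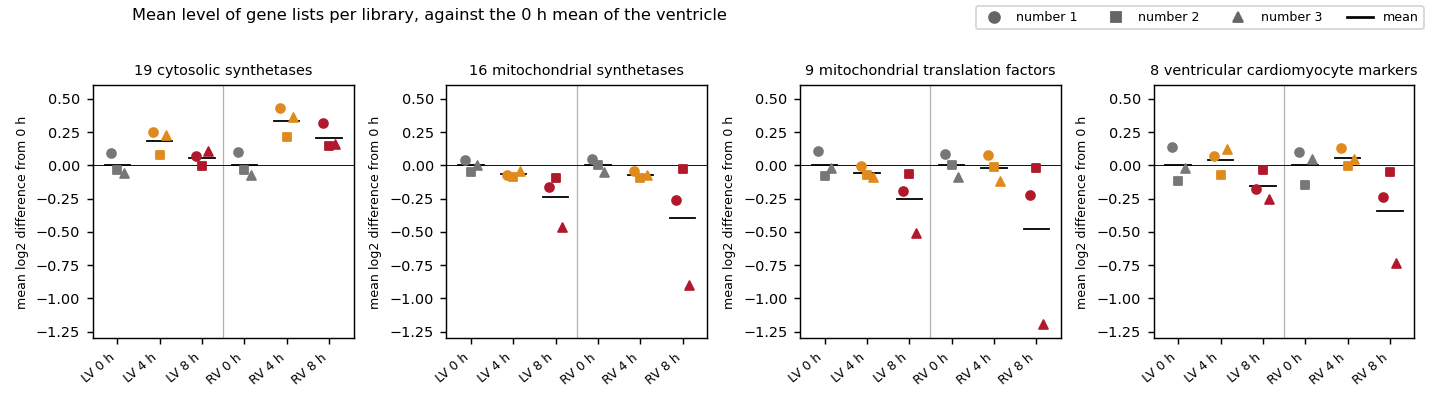
Mean log2 difference from the 0 h mean of the ventricle, in each library, over the 19 cytosolic synthetases, the 16 mitochondrial synthetases, 9 mitochondrial translation factors, and 8 ventricular cardiomyocyte markers; symbols give the replicate number and lines the group mean. RV 8 h number 3 is lowest for the mitochondrial synthetases (-0.90), the mitochondrial translation factors (-1.19), and the cardiomyocyte markers (-0.74) but not for the cytosolic synthetases (0.16).

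Between 4 h and 8 h no member was past the test in either ventricle. For LV, 7 of 35 had an unadjusted p under 0.05 and DESeq2 called 1, and for RV 3 had one and DESeq2 called 0. Over all genes tested with edgeR, 1180 of 14564 in LV and 961 of 14622 in RV had an unadjusted p under 0.05. DESeq2 called 22 of 5985 genes higher and 116 lower in LV, and 30 of 12181 higher and 14 lower in RV. By its adjusted p, edgeR called 0% of all genes in LV and 0% in RV. The log2 differences of 8 h from 4 h lay between -0.46 and 0.61 for LV and between -0.62 and 0.83 for RV, with Wars highest in both.

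LV and RV differed little in the synthetases at 0 h, with log2 differences of LV from RV between -0.15 and 0.28. No member was past the test at 0, 4, or 8 h with edgeR or DESeq2, and 0, 0, and 2 members had an unadjusted p under 0.05. Of 15093 genes, 0.159%, 0.0133%, and 0.0331% were past the test at these times, and 484, 446, and 1669 had an unadjusted p under 0.05. LV and RV libraries of the same time and number deviated together, and the fit with each such pair as a block called 3 members at 4 h, Cars, Tars, and Yars, all lower in LV than in RV, where it called 3.11% of all genes lower in LV. At 8 h it called 6 cytosolic genes lower in LV (Cars, Tars, Nars, Eprs, Yars, and Iars), the cytosolic Sars higher, and the mitochondrial Nars2, Tars2, Rars2, and Ears2 higher in LV. It called 16.5% of all genes lower and 15.5% higher in LV, so the shares of the 35 members were near those of all genes.

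The change from 0 h did not differ between the ventricles for any member without the pair as a block, with adjusted p values of 1.00 throughout, 0 members with an unadjusted p under 0.05 at either time, 0 called by DESeq2, and 0% of all genes called at 4 h and 0% at 8 h. With the pair as a block, 6 of the 19 cytosolic genes and 0 of the 16 mitochondrial genes differed at 8 h, all 6 with the larger increase in RV, where 8.02% of all genes had a more positive change in RV and 3.55% a more positive change in LV. These were Cars (difference of LV from RV in the log2 fold change -0.62, adjusted p = 0.032), Nars (-0.46, adjusted p = 0.023), Yars (-0.40, adjusted p = 0.028), Tars (-0.38, adjusted p = 0.028), Aars (-0.35, adjusted p = 0.078), and Eprs (-0.34, adjusted p = 0.065).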

How the data were processed

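RNA-seq was done on LV and RV of isolated mouse hearts, with 3 libraries in each of 6 groups assigned by their labels. The authors quantified the reads with Kallisto on GRCm38 transcripts with default settings, and deposited for each transcript an estimated count, a TPM value, and an effective length, with replicates kept separate. No strand setting is stated for the counting. The estimated counts of 110203 of 111462 transcripts were added up per gene (GENCODE M21) and rounded, and 1259 transcripts had no match. Reads that fit several genes had been divided between them, and 0% to 22.5% of the 31-base stretches of a member are shared with other genes. TPM, scaled by the authors for length and depth, served only to compare levels between genes.

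After filterByExpr and TMM scaling, the quasi-likelihood test of edgeR 4.0.16 (R 4.3.3) was run over all genes with Benjamini-Hochberg adjustment and a threshold of 0.1. Storage times were compared in the 9 libraries of a ventricle, and ventricles in all 18, with no block in the main fits. Replicates differed by more than counting noise. The labels do not state that they are separate hearts, so p-values measure the spread between these libraries. Depth limits the precision of members with few counts.

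Alternatives were DESeq2 1.42.0 (the tool of the study), transcript length offsets, RLE size factors, no filter, a fold over 1.5, all 18 libraries in the fit, each library left out, mitochondrially encoded genes left out, a Y-linked covariate, and a block, which was the replicate number for storage times and the pair of LV and RV libraries of the same time and number for ventricles. A further 2 were added after the data were seen, leaving out the 4 stored libraries numbered 3, and transcripts in place of genes. The scripts were checked on data simulated for LV at 8 h against 0 h, with 200 of 14564 genes changed. The edgeR test recovered 50% of the 2-fold changes and 87% of the 4-fold changes. Of its calls, 9.87% were unchanged genes. A member that was not past the test may thus still have changed.

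Whether numbers pair libraries was checked by the correlation of their deviations from group means. Same-numbered LV and RV libraries had r of 0.33 to 0.70 in 9 of 9 pairs, and all 9 pairs were on the same side of 50 CPM of Y-linked transcripts. In RV the lowest r with 0 h was 0.11 at 4 h and 0.16 at 8 h, and that of 8 h with 4 h was 0.36 in LV and 0.33 in RV. These libraries were thus regarded as paired, but only the block fits took the pairs into account. The main tests had no block, so their p-values ignore any pairing. In LV the lowest r with 0 h was 0.04 at 4 h and -0.02 at 8 h, and these were not regarded as paired, though a block fit was run for them too. Number 2 at 0 h and number 3 at 4 and 8 h were the ones low in Y-linked transcripts, so a number does not stand for one kind of heart across storage times.

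The members and gene lists were chosen with earlier results of these data known. Libraries are listed for the 5 cytosolic and 5 mitochondrial members with the largest mean change at 8 h, for Wars, Gars, and Kars, and, after their values were seen, for Tars and Lars2. Of other lists, at most 3 genes with the largest mean change at 8 h are named, beside Atf4, S100a8, and S100a9, which were chosen after their values were seen. List means are over log2 of CPM plus 0.5. Python 3.11.15 with pandas 2.3.3 was used for tables.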

Additional observations from a re-analysis of the deposited data

Results flagged for a closer look

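With each pair of LV and RV libraries of the same time and number as a block, the change from 0 h to 8 h differed between LV and RV for 6 cytosolic synthetases, each with the larger value in RV. The difference of LV from RV in the log2 fold change was -0.62 for Cars, -0.38 for Tars, -0.46 for Nars, -0.34 for Eprs, -0.40 for Yars, and -0.35 for Aars, with edgeR adjusted p values of 0.032, 0.028, 0.023, 0.065, 0.028, and 0.078. Without the block the differences were similar in size (-0.65, -0.38, -0.48, -0.34, -0.41, and -0.37) and none was past the test. The labels do not say that such a pair comes from 1 heart.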

How the results depend on the processing

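The number of members past the test moved with the processing more than their directions did. In LV at 4 h, where it was 0, it was 1 with DESeq2, 1 with the replicate block, 1 without the 4 stored libraries numbered 3, and 0 to 1 with single libraries left out. In LV at 8 h, where it was 0, it was 4 with DESeq2, 6 with the replicate block (Rars and Wars above 0, Lars, Dars, Iars2, and Vars2 below 0), 1 with RLE size factors, 1 without mitochondrially encoded genes, 1 with a Y-linked covariate, 1 without the stored libraries numbered 3, and 0 to 5 with single libraries left out. In LV, same-numbered libraries of 0 h and stored hearts did not deviate together. For RV at 4 h the main number was 3, and it was 6 with DESeq2, 8 with the block, 8 with all 18 libraries in the fit, 6 without the stored libraries numbered 3, and 0 to 8 with single libraries left out. For RV at 8 h the main number was 4, and it was 7 with DESeq2, 11 with the block, 7 with the Y-linked covariate, 5 without the stored libraries numbered 3 (Cars, Wars, Tars, Yars, and Aars, without Hars2), 13 with all 18 libraries in the fit, and 0 to 17 with single libraries left out. The calls over all genes moved as well. In RV at 8 h they were 2035 higher and 1051 lower of 14622 in the main fit. They were 2451 and 1178 of 15269 with DESeq2, and 2674 and 1985 of 15093 with all 18 libraries. In RV at 4 h these pairs were 959 and 635, 1339 and 892 of 14826, and 1285 and 1098. In LV at 8 h they were 888 and 341 of 14564 in the main fit and 1590 and 1061 of 14564 with the replicate block. Without 0 h number 2 they were 130 and 12 of 14813. DESeq2 called 1 member between 4 h and 8 h in LV. The block of LV and RV pairs gave 3 members for LV against RV at 4 h, 11 at 8 h, and 6 for how the change to 8 h differed between ventricles, where the main number was 0. Blocks changed no call for LV against RV at 0 h or between 4 h and 8 h.

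The cytosolic median of log2 fold changes exceeded the mitochondrial one by 0.21 and 0.33 in LV and 0.40 and 0.62 in RV at 4 and 8 h, under every alternative run in the same direction. In LV at 8 h it was 0.15 without the stored libraries numbered 3 and 0.15 to 0.43 with single libraries left out. The 24 results on single members were the changes at 8 h of Cars, Yars, Wars, Rars, Dars, Hars2, Iars2, Nars2, Pars2, and Vars2 in both ventricles, of Tars in RV at 8 h, and of Cars, Tars, and Yars in RV at 4 h, and these kept their direction in all 456 recomputations. A call was lost in 29 of them and gained in 36, and the cause was not tested. At 4 h some values near 0 changed sign with single libraries left out, from -0.09 to 0.06 for Dars in RV, from -0.10 to 0.01 in LV and -0.08 to 0.05 in RV for Iars2, and from -0.05 to 0.07 for Vars2 in LV. With 3 libraries in a group, fits without a library hold less data, and members near 2 CPM such as Pars2 are the least precise.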

Other observations

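Markers of other cell types were measured beside the synthetases. Of 5 neutrophil markers, 4 could be tested in LV and 2 in RV. Csf3r, the receptor of a granulocyte growth factor, rose in all 4 comparisons of stored with unstored hearts, and S100a8 and S100a9 rose in LV at 8 h. The summed level of the neutrophil markers was at most 3.46 CPM at 0 h and between 10.51 and 20.003 CPM at 8 h. Of 5 macrophage markers Adgre1 rose in RV at 8 h, and their summed level was 142.6 to 319.8 CPM at 0 h and 161 to 379.9 CPM at 8 h. Of 4 erythroid markers Hbb-bs and Hbb-bt rose in LV at 8 h, with summed levels of 11.8 to 194 CPM, beside 4.51 to 6.14 CPM in LV at 0 h. Of 4 T and B cell markers, Cd3d rose in RV at 4 h, at summed levels of 1.05 to 3.71 CPM. At 8 h 0 of 5 endothelial markers were past the edgeR test in either ventricle, with 2 and 2 at an unadjusted p under 0.05 in LV and RV and 2 and 1 called by DESeq2. For 5 fibroblast markers the edgeR count was 0, with 1 and 0 at an unadjusted p under 0.05 and 1 and 0 by DESeq2. For 3 smooth muscle markers it was 0, with 0 and 1 at an unadjusted p under 0.05 and 0 and 1 by DESeq2. For 4 adipocyte markers it was 0, with 0 and 1 at an unadjusted p under 0.05 and 0 and 0 by DESeq2. For 5 atrial markers all of these counts were 0. Beside these counts, the share of all genes that rose with edgeR was 2.49% (LV, 4 h), 6.1% (LV, 8 h), 6.56% (RV, 4 h), or 13.9% (RV, 8 h). At 8 h the share that fell was 2.34% (LV) or 7.19% (RV). An unadjusted p under 0.05 at 8 h was found for 3396 of 14564 genes (LV) or 4500 of 14622 (RV). With DESeq2 at 8 h, 1413 genes were higher and 814 lower of 14797 (LV), beside 2451 and 1178 of 15269 (RV). The part of the markers in the values of the synthetases was not tested.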
